A study of Mus musculus with 6 samples.

Results

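The U2 small nuclear ribonucleoprotein (snRNP) and its partners were represented by 10 genes, U2surp, Sf3b1, Sf3b2, Sf3b3, Sf3a1, Sf3a2, Sf3a3, U2af1, U2af2 and Dhx15, out of 33274 gene rows in the deposited counts. They were taken by gene symbol, and each symbol had 1 row. The set was selected on the measured difference of U2surp between the lineages, and the other 9 were added as its partners in the complex. Its own difference between the lineages is therefore given as a description. All 10 passed the filter on low counts, with 457 to 7724 counts per library.

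Expression was measured by poly(A) RNA-seq in the cerebral cortex of 6-week-old female wild-type mice of the outbred ICR stock. In the methylphenidate lineage (n = 3 libraries) the grandsire had received methylphenidate, a blocker of dopamine and noradrenaline reuptake, at 15 mg/kg under the skin on 21 days from 6 weeks of age. In the saline lineage (n = 3 libraries) he had received saline at 10 mL/kg in the same way. In both lineages these males were bred to untreated females, and 1 son from each litter was bred to an untreated female to give the mice studied, which were themselves never dosed. Whether animals of a lineage shared a sire or litter is not given in the labels, so the p-values speak for the spread among these 6 libraries alone. The comparison asked whether cortical expression differs with the treatment of the grandsire. Total counts were 23896752 to 28120640 per library.

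The U2 snRNP recognises the branch site of an intron, the adenosine that attacks the 5′ splice site in the first step of splicing. The U2AF pair, U2af2 and U2af1, first binds the polypyrimidine tract and the AG at the 3′ splice site, and the SF3A and SF3B complexes then hold the U2 RNA on the branch site. U2surp encodes an SR-related protein that associates with the U2 snRNP, and in human cells it forms a complex with CHERP and RBM17. Dhx15 encodes the helicase that takes spent spliceosomes apart. Nearly every neuronal gene with introns depends on this machinery.

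The regions just before the transcription start are shown for U2surp, the gene that stood apart, for Sf3b2, the member with the highest level per length, and for Sf3a2, the other member whose groups did not overlap. Each is the 250 bases before the start from RefSeq on GRCm38.p6, on the minus strand at chr9:95511997-95512246 for U2surp and at chr19:5295458-5295707 for Sf3b2, and on the plus strand at chr10:80798485-80798734 for Sf3a2. Capitals mark matches on either strand to any of 7 short motifs named after the sequences.
U2surp: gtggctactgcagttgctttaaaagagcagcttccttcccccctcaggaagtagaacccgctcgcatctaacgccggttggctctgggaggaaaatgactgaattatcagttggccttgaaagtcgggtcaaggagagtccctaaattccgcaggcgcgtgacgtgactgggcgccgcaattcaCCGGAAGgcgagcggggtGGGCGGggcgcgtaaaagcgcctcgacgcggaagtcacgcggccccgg
Sf3b2: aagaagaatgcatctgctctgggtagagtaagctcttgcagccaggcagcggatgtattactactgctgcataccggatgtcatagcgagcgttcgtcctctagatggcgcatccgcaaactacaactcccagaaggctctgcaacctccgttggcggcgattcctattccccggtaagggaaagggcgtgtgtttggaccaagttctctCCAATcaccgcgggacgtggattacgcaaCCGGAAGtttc
Sf3a2: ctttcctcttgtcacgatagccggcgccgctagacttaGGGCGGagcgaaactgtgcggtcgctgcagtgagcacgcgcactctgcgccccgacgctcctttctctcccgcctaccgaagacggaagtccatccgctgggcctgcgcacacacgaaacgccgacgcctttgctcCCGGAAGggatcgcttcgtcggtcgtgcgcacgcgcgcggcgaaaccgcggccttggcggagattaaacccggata

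RefSeq gave such a region for 9 of the 10 genes, all but U2af2. The ETS core CCGGAAG lay in 6 of the 9, those of U2surp, Sf3b2, Sf3b3, Sf3a1, Sf3a2 and Sf3a3, and in 6.91% of 32851 regions of the same length, which include several starts for some genes. The GC box GGGCGG also lay in 6 of the 9, against 32.7% of all regions, and the CCAAT box CCAAT in 4 of the 9, against 33.8%. The TATA box TATAAA was found before Sf3b3 alone among the 9, against 12.4% of all regions. The E-box CACGTG, the cAMP response element TGACGTCA and the YY1 core AAGATGGC were in none of the 9 and in 6.02%, 1.55% and 1.56% of all regions. U2surp thus carried the same ETS core and GC box as Sf3a1 and Sf3a2. G and C made up 45.6 to 71.6% of the 9 regions, all but that of Sf3b3 above the median of 52.4% over all regions. The part of this base content in the motif shares was not tested. The motifs are matches of letters, and binding was not measured.

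U2surp (ENSMUSG00000032407, chromosome 9) was higher in every library of the methylphenidate lineage than in any of the saline lineage, as in 6.97% of all genes tested. None of the 10 members, U2surp among them, passed the edgeR test after adjustment. It had 67.1, 64.2 and 66.0 CPM (counts scaled to a common library total, with TMM factors) in methylphenidate replicates 1 to 3, against 40.9, 45.3 and 35.6 CPM in saline replicates 1 to 3. The 3 methylphenidate libraries lay close together, the saline libraries were more spread, and the groups did not overlap. The means were 65.7 ± 1.48 CPM in the methylphenidate lineage and 40.6 ± 4.87 CPM in the saline lineage (SD, n = 3 each). The log2 fold change, methylphenidate minus saline, was 0.70 (SE 0.09, 95% interval 0.48 to 0.91), a ratio of 1.62. These are the values that chose the gene: 6 of 18327 genes tested had a smaller p, and its edgeR adjusted p of 0.0703 lay just outside the threshold of 0.05. With DESeq2 and with scaling by total counts it lay inside, at adjusted p of 1.66e-07 and 0.0489, though DESeq2 called 151 genes where edgeR called 5. In the other 12 of 14 alternatives it lay outside. Its edgeR adjusted p was 0.186 with the replicate number as a block, 0.227 without a filter and 0.277 without methylphenidate replicate 3.

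None of the other 9 members passed edgeR's quasi-likelihood test after adjustment over all genes tested (adjusted p 0.763 to 0.993). At an unadjusted p under 0.05 there were also 0 of 9, where 7.51% of all genes tested had such a p. In edgeR 0.0273% of all genes passed the adjusted threshold. DESeq2 and limma-voom likewise gave 0 of 9 by either criterion, with 1262 and 1415 of 18327 genes at an unadjusted p under 0.05. The log2 fold changes of the 9 lay between -0.16 and 0.14, 4 above 0 and 5 below, with a median of -0.01. Over all 10 members the median was 0.00, as it was over all genes tested. The 95% interval of each of the 9 held 0, and each ended below 0.48, where the interval of U2surp began. The highest end was 0.35, for Sf3a2, so the fold change seen in U2surp lay outside all 9 intervals. That fold change and the bound of 0.48 come from the values that chose U2surp and may be too high. Comparisons with them, here and below, are descriptions and give U2surp no further support.

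**Figure D1:**
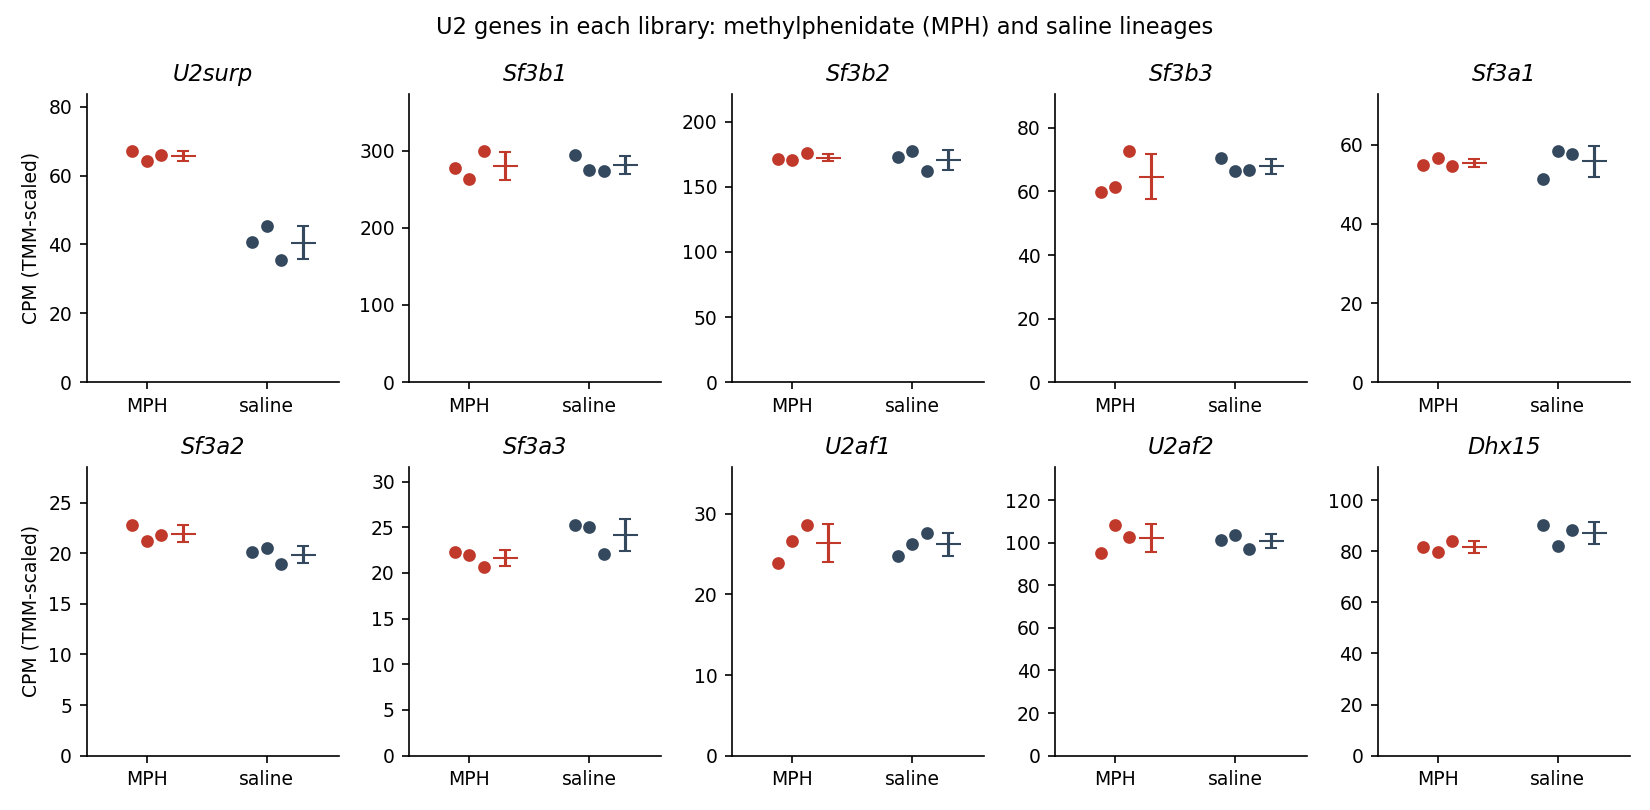
CPM of the 10 genes in each library (points), with the mean and SD of 3 libraries beside them, for the methylphenidate (MPH) lineage on the left and the saline lineage on the right of each panel, on axes that start at 0. U2surp lay at 64.2 to 67.1 CPM in the methylphenidate lineage and at 35.6 to 45.3 CPM in the saline lineage, and in the other panels the groups overlapped, except for Sf3a2.

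The SF3B genes, whose products form the clamp around the branch site, overlapped between the lineages. Sf3b1 (chromosome 1), the scaffold of HEAT repeats that encloses the branch site helix, had 277.5, 262.9 and 299.2 CPM in methylphenidate replicates 1 to 3, against 294.4, 274.6 and 273.5 CPM in saline replicates 1 to 3. The ranges nearly coincided, and the log2 fold change was -0.01 (SE 0.07). Sf3b2 (chromosome 19), whose protein contacts the pre-mRNA near the branch site, had 171.2, 170.5 and 175.7 CPM in the methylphenidate libraries and 172.6, 177.4 and 162.3 CPM in the saline libraries. Its methylphenidate values lay inside the saline range, and the log2 fold change was 0.01 (SE 0.06). Sf3b3 (chromosome 8), a propeller-shaped scaffold protein of the complex, had 59.8, 61.5 and 72.6 CPM in the methylphenidate libraries, against 70.6, 66.3 and 66.8 CPM in the saline libraries. Methylphenidate replicate 3 was the highest of the 6 and replicates 1 and 2 the lowest, and the log2 fold change was -0.07 (SE 0.09).

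The 3 SF3A genes encode the complex that joins the U2 particle last before it becomes active. Sf3a1 (chromosome 11) had 54.9, 56.7 and 54.6 CPM in the methylphenidate libraries, inside the saline values of 51.3, 58.3 and 57.6 CPM. Sf3a2 (chromosome 10) had 22.8, 21.2 and 21.8 CPM in the methylphenidate libraries, against 20.1, 20.5 and 18.9 CPM in the saline libraries. Its groups did not overlap but lay close together, and its log2 fold change was 0.14 (± 0.09 SE, with an adjusted p = 0.783 in edgeR). Among the other 9 members it was the single gene of this kind, and in 0 of 9 did all methylphenidate libraries lie lower. Over all genes tested the groups did not overlap in 13.5%, with the methylphenidate lineage higher in 6.97% and lower in 6.51%. Sf3a3 (chromosome 4) had 22.3, 21.9 and 20.7 CPM in the methylphenidate libraries, against 25.3, 25.1 and 22.1 CPM in the saline libraries. Saline replicate 3 fell among the methylphenidate values, and the log2 fold change was -0.16 (± 0.10 SE, with an adjusted p = 0.763 in edgeR), the lowest among the members. Sf3a2 and Sf3a3 thus had fold changes of opposite sign within 1 complex, neither past the test.

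The U2AF genes, which act before U2 arrives, overlapped between the lineages. U2af1 (chromosome 17), the small subunit that reads the AG, had 23.9, 26.7 and 28.7 CPM in the methylphenidate libraries, against 24.7, 26.3 and 27.6 CPM in the saline libraries (log2 fold change 0.01, SE 0.10). U2af2 (chromosome 7), the large subunit that binds the polypyrimidine tract, had 95.4, 108.4 and 102.6 CPM in the methylphenidate libraries, against 101.2, 103.8 and 97.3 CPM in the saline libraries (log2 fold change 0.02, SE 0.07). In both genes the methylphenidate libraries were the more spread. Dhx15 (chromosome 5) had 81.5, 79.6 and 84.0 CPM in the methylphenidate libraries, against 90.4, 82.3 and 88.5 CPM in the saline libraries. Methylphenidate replicate 3 lay above saline replicate 2, so the groups overlapped, and the log2 fold change was -0.09 (± 0.07 SE, with an adjusted p = 0.809 in edgeR).

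**Figure D2:**
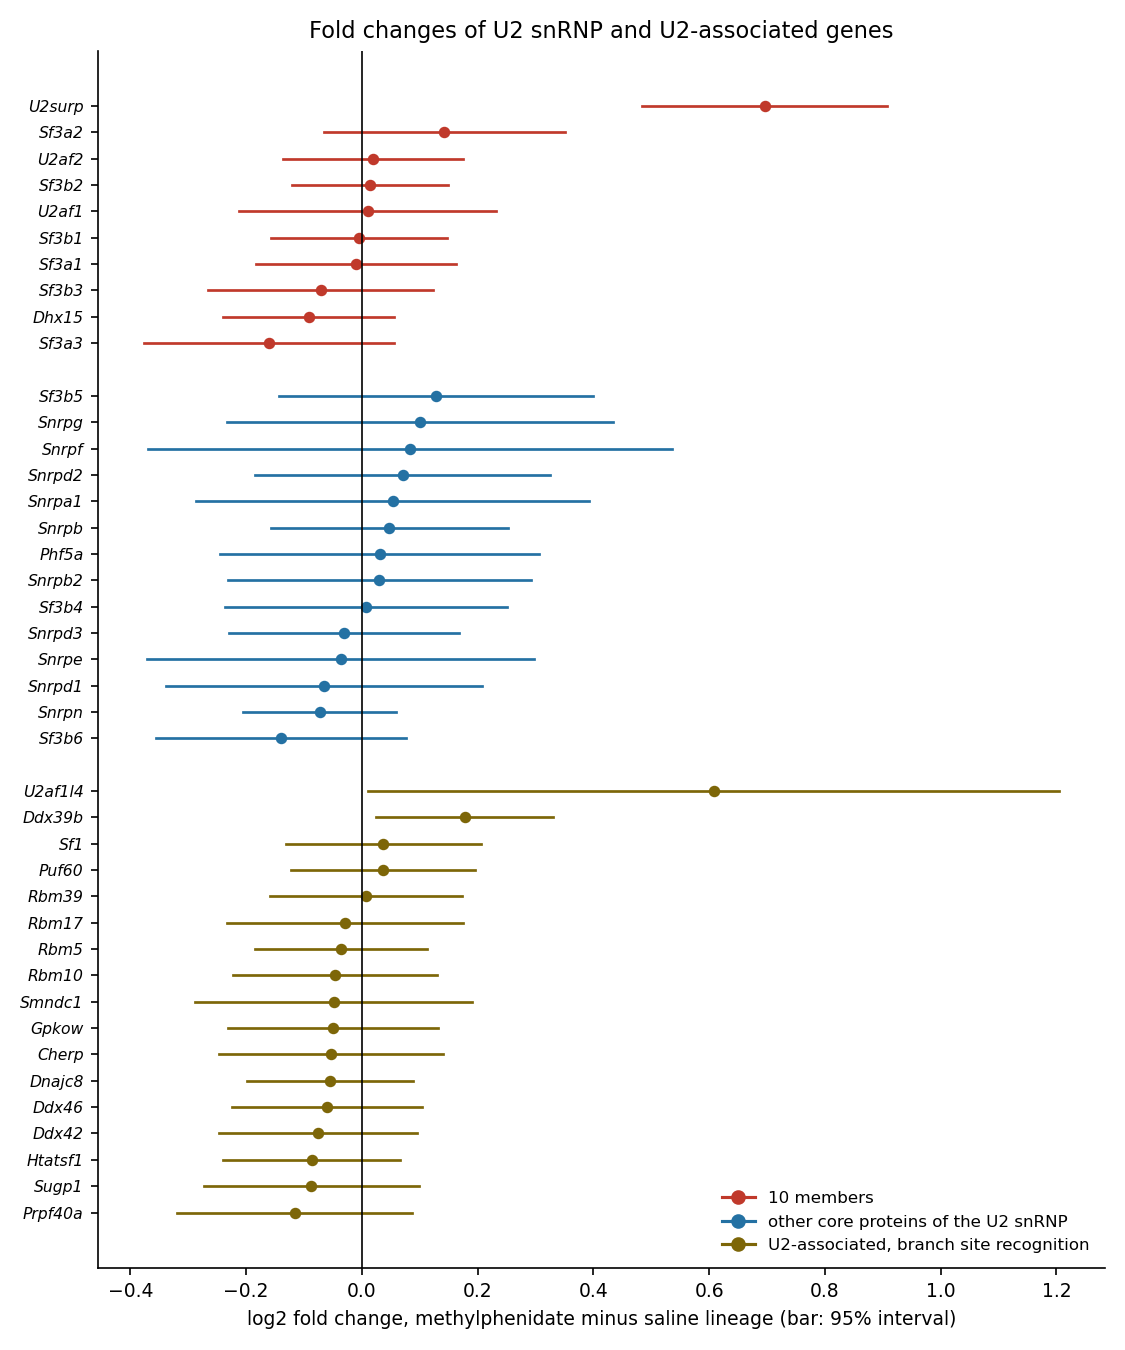
Log2 fold changes, methylphenidate minus saline lineage (points), with 95% intervals from the edgeR fit (bars), for the 10 members, 14 other core proteins of the U2 snRNP and 17 U2-associated or branch site factors, each set ordered by fold change. The interval of U2surp runs from 0.48 to 0.91, and those of the other 9 members end at or below 0.35.

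Because all members were counted in the same libraries, U2surp can be set against the rest of the set within each one. U2surp made up 7.66, 7.34 and 7.13% of the counts of the 10 genes in methylphenidate replicates 1 to 3, with 95% Wilson intervals of 7.31 to 8.02%, 7.03 to 7.67% and 6.80 to 7.47%. In saline replicates 1 to 3 it made up 4.58, 5.15 and 4.18%, with intervals of 4.32 to 4.86%, 4.87 to 5.44% and 3.92 to 4.47%. These intervals cover counting error only. The share was higher in each methylphenidate library than in any saline library. It is built on the counts of U2surp that chose the set, so it restates that difference relative to the other members and gives it no further support. The summed level of the other 9 was 826 ± 29.1 CPM in the methylphenidate lineage and 833 ± 18.1 CPM in the saline lineage (SD, n = 3 each). On the log2 scale, U2surp minus the mean of the other 9 was 0.04 ± 0.05 in the methylphenidate lineage and -0.68 ± 0.15 in the saline lineage (SD, n = 3 each), a difference of 0.72.

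**Figure D3:**
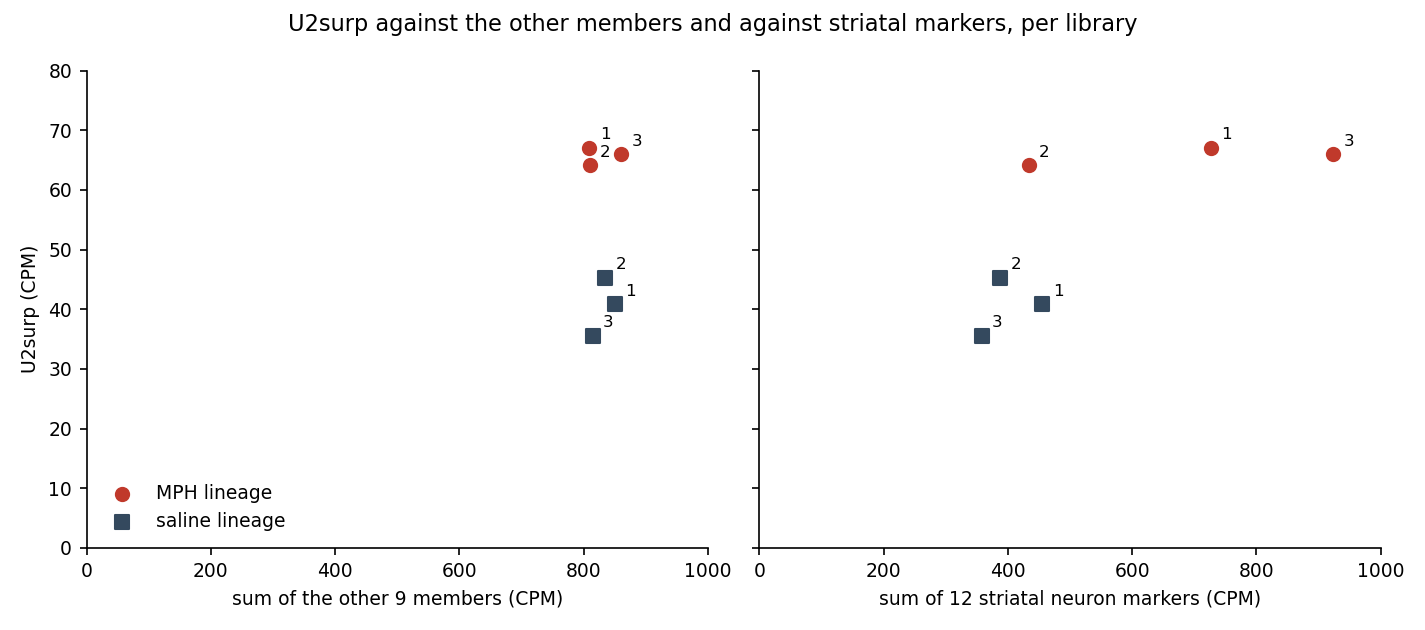
U2surp in CPM (vertical axis) against the summed CPM of the other 9 members (left) and of 12 striatal neuron markers (right) in each library. Circles are the methylphenidate lineage, squares the saline lineage, and numbers are replicates. The other members sum to 809 to 860 CPM and 815 to 851 CPM in the methylphenidate and saline libraries, and the striatal markers to 433.3 to 922.8 CPM and 357.6 to 455.1 CPM in the methylphenidate and saline libraries. The part of striatal tissue in the level of U2surp was not tested.

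Levels of different genes were compared per kilobase of the longest coding transcript in GENCODE M21, an annotation of GRCm38 and not of the build named for the counts. On that scale U2surp was the lowest of the 10 in both lineages, with 8.62 ± 0.195 CPM per kb in the methylphenidate lineage and 5.32 ± 0.638 CPM per kb in the saline lineage. Sf3a2 came next, with 9.91 ± 0.37 and 8.97 ± 0.38 CPM per kb in the methylphenidate and saline lineages, and Sf3a1 after it, with 11.3 ± 0.23 and 11.3 ± 0.78 CPM per kb (SD, n = 3 each). Sf3b2 was the highest, with 53.5 ± 0.87 CPM per kb in the methylphenidate lineage and 53.0 ± 2.39 CPM per kb in the saline lineage. U2af2 had 46.8 ± 3.00 and 46.2 ± 1.52 CPM per kb and Sf3b1 45.2 ± 2.95 and 45.3 ± 1.90 CPM per kb in the methylphenidate and saline lineages, a pair that did not differ beyond its spread. Dhx15, U2af1, Sf3b3 and Sf3a3 followed in that order between 28.9 and 11.9 CPM per kb. The order of the 10 was the same in both lineages. With the union of all annotated exons as the length, Sf3b3 moved to the ninth place, while Sf3b2 stayed first and U2surp last in both lineages.

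Among libraries of 1 lineage the members varied by a few percent. The coefficient of variation of the other 9 was 1.63 to 10.8% in the methylphenidate lineage and 3.29 to 7.33% in the saline lineage. That of U2surp was 2.26% in the methylphenidate lineage and 12.0% in the saline lineage, where it was the most variable of the 10.

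The partners of U2surp in the particle were taken from a list of 14 further core proteins and one of 17 associated factors. Of the core proteins none passed edgeR after adjustment or had an unadjusted p under 0.05. Over all genes tested 7.51% had such a p. The log2 fold changes of the 14 were -0.14 to 0.13 with a median of 0.03. All 14 intervals held 0, and 13 ended below 0.48, the exception being Snrpf, a Sm ring protein whose interval ended at 0.54. Sf3b6, the branch site protein p14, stood at -0.14 on the log2 scale (SE 0.10). Snrpn, an imprinted gene for a Sm protein of neurons, stood at -0.07 (SE 0.06). Its groups did not overlap, with the methylphenidate lineage lower, as in 6.51% of all genes tested. Cherp and Rbm17, whose human counterparts bind the protein of U2surp, stood at -0.05 (SE 0.09) and -0.03 (SE 0.09) on the log2 fold scale. Cherp lay at 40.7, 39.6 and 44.9 CPM in the methylphenidate libraries, against 41.2, 42.7 and 46.0 CPM in the saline libraries. Rbm17 lay at 34.4, 36.0 and 37.2 CPM in the methylphenidate libraries, against 40.4, 34.4 and 35.1 CPM in the saline libraries. Both overlapped between the lineages throughout.

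Of the 17 associated factors, 2 had an unadjusted p under 0.05, both with higher values in the methylphenidate lineage, where 4.2% of all genes tested had such a p in that direction, and none passed after adjustment. Their median log2 fold change was -0.05. Ddx39b, the ATPase that helps U2 join the intron, had 143.2, 140.7 and 151.2 CPM in the methylphenidate libraries, against 119.3, 130.0 and 135.3 CPM in the saline libraries (log2 fold change 0.18 ± 0.07 SE, adjusted p = 0.606 in edgeR). U2af1l4, a relative of U2af1, had 9.83, 8.12 and 16.5 CPM in the methylphenidate libraries, against 5.76, 8.17 and 8.65 CPM in the saline libraries (log2 fold change 0.61 ± 0.27 SE, adjusted p = 0.657 in edgeR). The groups of Ddx39b did not overlap, with the methylphenidate lineage higher, as in 6.97% of all genes tested. Those of Dnajc8 did not overlap either, with the methylphenidate lineage lower, as in 6.51% of all genes tested (log2 fold change -0.06, SE 0.06). The groups of U2af1l4 did overlap, methylphenidate replicate 3 standing far above the rest. U2af1l4 was the single gene of these 2 lists whose interval reached the fold change of U2surp.

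Across 9 lists of the splicing machinery, these lists among them, 166 genes were tested and none passed edgeR, DESeq2 or limma-voom after adjustment. At an unadjusted edgeR p under 0.05 there were 15, or 9.04%, against 7.51% of all genes tested. Of these 15, 6 had higher and 9 lower values in the methylphenidate lineage. DESeq2 and limma-voom each gave 13 of 166, where they gave 1262 and 1415 of all 18327 genes tested. The edgeR count of 15 was 9 and 5 without methylphenidate replicates 2 and 3, and 8 without either of saline replicates 1 and 2. The count over all genes tested moved as well, from 1376 of 18327 with all libraries. Without methylphenidate replicates 2 and 3 it was 1480 of 18867 and 1007 of 18855. Without saline replicates 1 and 2 it was 1142 of 18884 and 1248 of 18867. The median log2 fold change of the 166 was -0.03. No gene of the 166 had a log2 fold change as high as that of U2surp, and 158 of their 95% intervals ended below 0.48. Both marks come from the values that chose U2surp.

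The lists for the other particles of the spliceosome gave no call. Over all genes tested 7.51% had an unadjusted p under 0.05. At that share lists this short would hold few such genes, so a count of 0 says little. In the U1 snRNP, which marks the 5′ splice site, 0 of 10 genes had an unadjusted p under 0.05, with a median log2 fold change of 0.05, and Prpf39 and Tia1 had the smallest p, at 0.12 (SE 0.08) and 0.10 (SE 0.08). In the U4/U6.U5 tri-snRNP 0 of 24 did, with a median of -0.04. Lsm6, a U6 ring protein, had a log2 fold change of 0.32 (SE 0.16) there, and Lsm5 one of -1.14 (SE 0.75) at no more than 2.77 CPM in any library. In the minor spliceosome, which removes a rare class of introns, 0 of 11 did, with a median of -0.03, and the smallest p belonged to Zrsr1, at -0.17 (SE 0.09), and Pdcd7, at 0.16 (SE 0.11).

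In the list of the Prp19 complex and catalytic step factors 3 of 22 genes had lower values in the methylphenidate lineage at an unadjusted p under 0.05, where 3.31% of all genes tested did in that direction, and 19 of the 22 lay below 0. The median log2 fold change was -0.07, against 0.00 over all genes tested. Cdc5l, a core protein of the Prp19 complex, had 33.8, 35.03 and 30.1 CPM in the methylphenidate libraries, against 40.2, 45.1 and 38.1 CPM in the saline libraries (log2 fold change -0.32 ± 0.10 SE, adjusted p = 0.498 in edgeR). Aqr, an intron-binding helicase, had 31.5, 24.9 and 29.3 CPM in the methylphenidate libraries, against 33.0, 40.8 and 34.5 CPM in the saline libraries (log2 fold change -0.34 ± 0.12 SE, adjusted p = 0.562 in edgeR). In both genes every methylphenidate library lay below every saline library, as in 6.51% of all genes tested. Cwc22, which recruits the exon junction complex, was the third and is named after its values were seen. It had 226.9, 16.8 and 17.3 CPM in methylphenidate replicates 1 to 3, against 251.7, 484.0 and 323.4 CPM in saline replicates 1 to 3 (log2 fold change -2.02 ± 0.84 SE, adjusted p = 0.636 in edgeR). The groups of Cwc22 did not overlap either. Methylphenidate replicate 1 lay near saline replicate 1 and far above the other libraries of its lineage. Without it the log2 fold change was -4.37, and the edgeR adjusted p was 0.00132, the single call among the 166 genes in any setting tried. Mouse strains are known to differ in the number of copies of Cwc22, and reads of near-identical copies cannot be placed with certainty, so this level is uncertain. The part of copy number or read placement in these values was not tested.

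Among the SR proteins and their kinases, which promote exon recognition, 1 of 22 genes had an unadjusted p under 0.05, Srpk2, with a log2 fold change of -0.16 (± 0.06 SE, with an adjusted p = 0.604 in edgeR). Srsf2 followed with 0.12 (SE 0.07). Among the hnRNP proteins, which often act against them, 1 of 21 did, Hnrnpll, with -0.22 (± 0.09 SE, with an adjusted p = 0.619 in edgeR), and Hnrnpa1 followed with -0.13 (SE 0.07). These shares, 4.55% of the SR list and 4.76% of the hnRNP list, lay near the 3.31% of all genes tested that had such a p with lower values. The median log2 fold changes were 0.01 in the SR list and -0.01 in the hnRNP list.

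The splicing regulators of neurons had 8 of 25 genes at an unadjusted p under 0.05, 4 with higher and 4 with lower values, where 7.51% of all genes tested had such a p, 4.2% higher and 3.31% lower. None of the 25 passed edgeR after adjustment (smallest adjusted p = 0.555). DESeq2 gave 6 and limma-voom 7 of 25 at an unadjusted p under 0.05, and none after adjustment. Over all 18327 genes tested these tools gave 1262 and 1415 at that unadjusted p. Celf3, Celf6, Celf5 and Celf2, of the CUG-binding family, had log2 fold changes of 0.25 (SE 0.09), 0.34 (SE 0.13), 0.18 (SE 0.07) and 0.13 (SE 0.06). Khdrbs3, Rbfox1, Rbfox3 and Mbnl1 had log2 fold changes of -0.19 (SE 0.07), -0.18 (SE 0.06), -0.14 (SE 0.05) and -0.17 (SE 0.07). Khdrbs3, a STAR family RNA-binding protein, lay at 132.2, 134.1 and 129.4 CPM in the methylphenidate libraries, against 143.4, 161.6 and 147.9 CPM in the saline libraries. Celf3 lay at 112.6, 117.7 and 129.0 CPM in the methylphenidate libraries, just above the saline values of 97.6, 91.2 and 112.5 CPM. The count of 8 was 5 without methylphenidate replicate 1, 5 without replicate 2 and 1 without replicate 3, and it was 2 without either of saline replicates 1 and 2 and 5 without saline replicate 3. Over all genes tested the count was 1376 of 18327 with all libraries. It was 1357 of 18851, 1480 of 18867 and 1007 of 18855 without methylphenidate replicates 1, 2 and 3. Without saline replicates 1, 2 and 3 it was 1142 of 18884, 1248 of 18867 and 1350 of 18893. Beside the 8 neuronal regulators, 6 of 10 cortical excitatory neuron markers were lower and 10 of 11 tested striatal markers higher at an unadjusted p under 0.05 in the methylphenidate lineage, and their part in the counts of neuronal regulators was not tested.

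**Figure D4:**
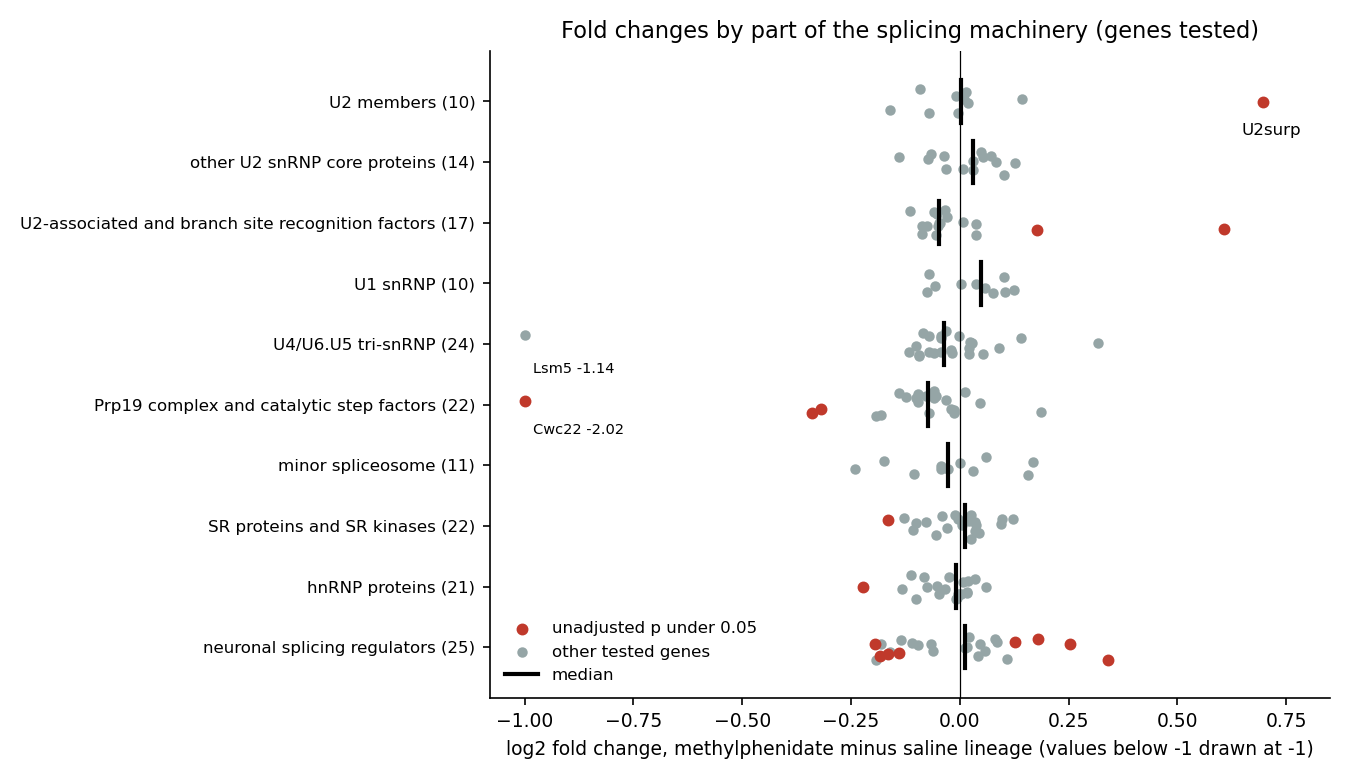
Log2 fold changes, methylphenidate minus saline lineage, of every tested gene (points) in the 10 members and in 9 lists of the splicing machinery, with the number of genes in brackets and the median as a black bar. Red points have an unadjusted edgeR p under 0.05, and values below -1 are drawn at -1 with their value. U2surp at 0.70 lies to the right of all other genes, and the medians lie between -0.07 and 0.05.

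Bulk cortex holds many cell types, and fewer cells of a type and less RNA per cell cannot be told apart. Of 12 markers of striatal projection neurons, all had counts, and their sum was 726.9, 433.3 and 922.8 CPM in methylphenidate replicates 1 to 3, against 455.1, 386.9 and 357.6 CPM in saline replicates 1 to 3. The ranges of the sums overlapped, since methylphenidate replicate 2 lay below saline replicate 1. Of the 11 markers tested, 10 were higher in the methylphenidate lineage at an unadjusted edgeR p under 0.05, where 4.2% of all genes tested were. The median log2 fold change of the 11 was 1.17, and none passed after adjustment. The part of these markers in the level of U2surp was not tested. Cortical excitatory markers, 10 of 10 with counts, summed to 4907 to 5468 CPM in the methylphenidate lineage and 5032 to 5293 CPM in the saline lineage. Of these 10, 8 had log2 fold changes below 0. In 6 the values were lower at an unadjusted edgeR p under 0.05, where 3.31% of all genes tested were lower, and none passed after adjustment. Oligodendrocyte precursor markers, 6 of 6, summed to 369 to 403 CPM in the methylphenidate lineage and 296 to 350 CPM in the saline lineage. These sums did not overlap, as in 6.97% of single genes tested with the methylphenidate lineage higher. All 6 had log2 fold changes above 0, with a median of 0.29. In 3 the values were higher at an unadjusted edgeR p under 0.05, where 4.2% of all genes tested were, and none passed after adjustment. The part of these 6 markers in the level of U2surp was not tested. Inhibitory neuron, astrocyte, oligodendrocyte, microglial and endothelial sums overlapped between the lineages. At an unadjusted edgeR p under 0.05, 2 of 7 microglial markers were higher. Of 8 inhibitory neuron markers 1 was higher and 2 were lower, and of 6 endothelial markers 1 was higher and 1 lower. Over all genes tested the shares were 4.2% higher and 3.31% lower. No astrocyte or oligodendrocyte marker had such a p, and none of these markers passed after adjustment. Choroid plexus markers, 6 of 6, ranged from 25.1 to 504.0 CPM in the methylphenidate lineage and from 45.1 to 658.9 CPM in the saline lineage. Mitochondrial transcripts made up 6.44 to 8.19% of all counts in the 6 libraries.

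None of the tested genes nearest to U2surp on chromosome 9 passed the test. In the GENCODE M21 annotation no gene overlaps U2surp. The nearest tested genes of any kind were Gm28424, a noncoding gene on the opposite strand next to the start of U2surp, and Gm37805. Gm28424 had 64, 38 and 38 counts in the methylphenidate libraries, against 45, 34 and 37 in the saline libraries (log2 fold change 0.28, SE 0.35), and Gm37805 had 19, 17 and 14, against 31, 6 and 11 (log2 fold change 0.06, SE 0.59). The nearest tested protein-coding genes were Chst2, a sulfotransferase gene, at 0.01 (SE 0.10), and Paqr9, of the progestin receptor family, at -0.07 (SE 0.09) on the same scale. Among the 10 nearest tested protein-coding genes on each side, a window chosen after the values were seen, 1 of 20 had an unadjusted p under 0.05, Slc9a9, with a log2 fold change of -0.28 (SE 0.13). That is a share close to the 7.51% over all genes tested. None passed edgeR after adjustment (smallest adjusted p = 0.665), and the fold changes ran from -0.81 for Plscr1 to 0.60 for Gk5, both genes of wide error.

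**Figure D5:**
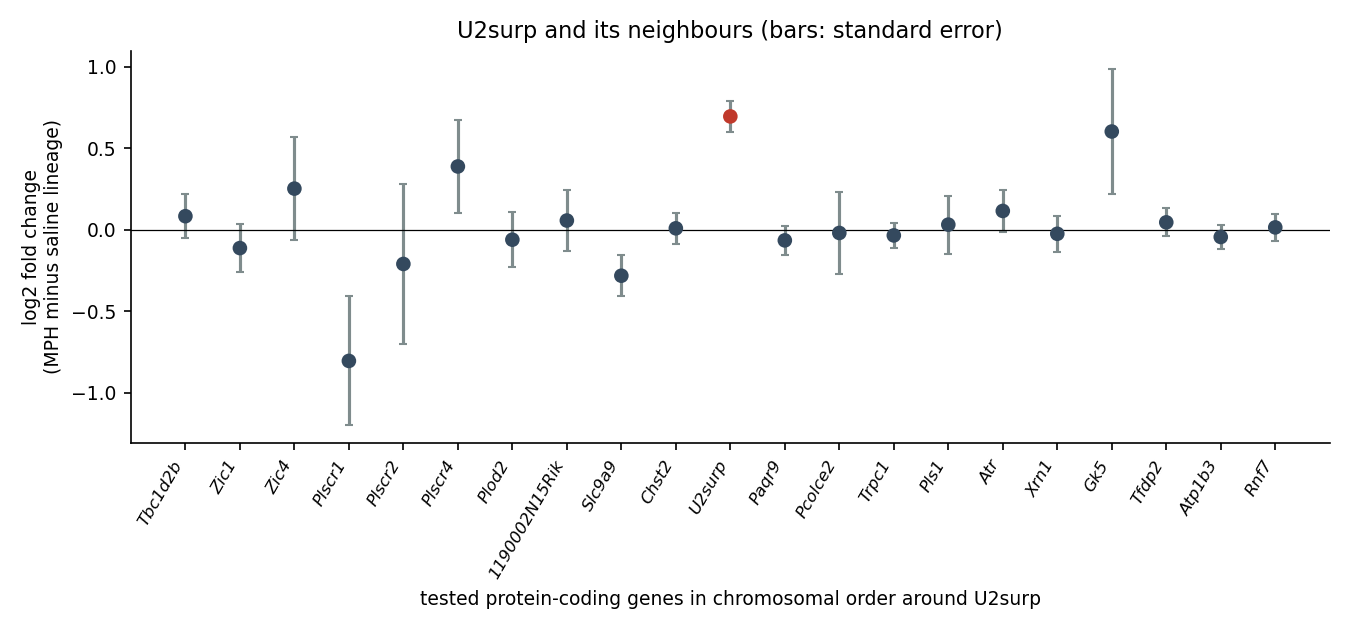
Log2 fold changes, methylphenidate minus saline lineage (points), with standard errors (bars), of U2surp in red and of the 10 nearest tested protein-coding genes on each side, in chromosomal order. U2surp lies at 0.70, while its direct neighbours Chst2 and Paqr9 lie at 0.01 and -0.07.

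Of the other members, 5 overlap another annotated gene. Sf3b3 overlaps Cog4 and Sf3a2 overlaps Plekhj1, each a coding gene on the opposite strand. The fold change of Cog4 was -0.06 (SE 0.11) and that of Plekhj1 -0.04 (SE 0.10) on the log2 scale. Whether the counting used strand is unstated, and without strand the reads of such a pair cannot be told apart. The overlapping genes of Sf3b2, Sf3a3 and Dhx15 had at most 12 counts in any library.

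The genes whose levels over the 6 libraries were most like those of U2surp were found by the root mean square distance between centred log2 CPM. The search covered 13833 tested genes of at least 1 mean CPM, without those that had no symbol or a Gm or Rik name. The nearest were Rps6ka6, Parp14, Col23a1, Nmnat3 and Dnase1l1, at distances of 0.07, 0.09, 0.11, 0.11 and 0.12 on the log2 scale. Col23a1, a transmembrane collagen gene, had 16.1, 17.7 and 18.9 CPM in the methylphenidate libraries, against 11.1, 10.4 and 9.52 CPM in the saline libraries. Rps6ka6, a ribosomal S6 kinase gene, had 5.39, 4.89 and 4.74 CPM in the methylphenidate libraries, against 3.35, 3.56 and 2.86 CPM in the saline libraries. In all 5 the groups did not overlap, which follows from the way they were chosen. Nmnat3 lies on chromosome 9, as U2surp does, and the others on chromosomes X, 16 and 11. Nmnat3 and Dnase1l1 had low counts, 14 to 40 and 21 to 46 per library. The nearest of the other members was Sf3a2, at a distance of 0.29 and rank 921, and the farthest was Sf3a3, at 0.44 and rank 9863.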

How the data were processed

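Per the labels' protocols, poly(A) RNA went into strand-marking libraries. Per the submitters' processing notes, the build was GRCm39 and the tools, listed without roles, included HISAT2 2.2.1, StringTie 2.2.1, fastp 0.23.4 and bcl2fastq 2.19. The sources used here do not give the annotation, the strand setting or the step to gene counts. The authors deposited raw counts by Ensembl gene, and 985 of 33274 rows had no symbol. Total counts set the precision: a count of 0 allows up to 3 counts, 0.107 to 0.126 CPM, for counting error only.

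The test was that of edgeR 4.0.16 under R 4.3.3 (filterByExpr, TMM scaling, quasi-likelihood test, group as the only term, two-sided), with Benjamini-Hochberg adjustment over 18327 genes and a threshold of 0.05. Standard errors are the fold change over the square root of F, and 95% intervals use the moderated degrees of freedom. Log2 CPM for distances had a prior count of 2. Alternatives were other scalings, filters (none, or at least 10 counts in 3 libraries with 1 CPM on average), the replicate number as a block, each library left out in turn, DESeq2 1.42.0 and limma-voom (limma 3.58.1). The code was tested on simulated data.

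The members and lists were chosen with earlier results of these data known. Named genes were the members, the 2 genes of smallest p in each other list, the 5 genes most like U2surp, and genes next to U2surp or overlapping a member. The remaining genes were named after their values were seen, among them other genes of the U2 lists and those at an unadjusted p under 0.05. Qk and Cenatac were matched under the symbols Qki and Ccdc84. Same-numbered libraries were checked for pairing.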

Additional observations from a re-analysis of the deposited data

How the results depend on the processing

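The log2 fold changes of the 9 members other than U2surp gave no call in any of 14 alternatives each (smallest adjusted p = 0.716). That of U2surp lay between 0.61 and 0.78, past the threshold with DESeq2 and total-count scaling and not in the other 12. Signs turned in 13 of the 126 values of the 9, all in genes whose log2 fold change was at most 0.02 in size. Sf3b1 had 0.00098 with upper-quartile and 0.0046 with total-count scaling. Leaving out 1 library gave -0.057 to 0.037 for Sf3b1, -0.067 to 0.024 for Sf3a1, -0.021 to 0.043 for Sf3b2, -0.054 to 0.076 for U2af1, -0.026 to 0.066 for U2af2 and -0.054 to 0.012 for the median of the 9. Genes past the threshold numbered 5; they were 10 with total-count scaling, 3 without a filter, 2 with the replicate block, 151 with DESeq2 and 2 to 26 without 1 library (26, 12 and 2 without methylphenidate replicates 1, 2 and 3, and 6, 3 and 8 without saline replicates 1, 2 and 3). The count of genes of the other splicing lists at an unadjusted p under 0.05, recomputed under alternatives chosen after the data were seen, was 15, with 5 to 13 without 1 library and 13 to 16 otherwise. Over all genes tested such counts were 1376 in the main fit and 1007 to 1480 without 1 library. Otherwise they ran from 1255 of 15822 genes with the stricter filter to 1757 of 33274 without a filter. Over 15825 genes, correlations of deviations from the group means were -0.012 to 0.131 for same-numbered libraries. They lay inside the -0.152 to 0.155 of libraries with different numbers. With 3 libraries a lineage this cannot exclude pairing, and the main fit used none. Under the block the edgeR adjusted p of U2surp was 0.186 and no member changed its call. With 3 libraries a lineage, the standard errors of log2 fold changes had a median of 0.15 over all genes and ran from 0.06 to 0.10 in the members.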
